A study of Mus musculus with 3 samples.

Results

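H3R2me2s, the symmetric dimethylation of arginine 2 on histone H3, was set beside the combined mark H3R2me2sK4me3, in which the same histone tail also carries trimethylation of lysine 4. Each was mapped by chromatin immunoprecipitation followed by sequencing (ChIP-seq), with 1 library per antibody, and both antibodies were raised in the submitting laboratory. The cells of both libraries were RAG2-/- Abelson-transformed pro-B cells of strain C57BL/7, as the label spells it, grown in RPMI1640 medium with 10% serum. Both groups therefore share the RAG2 deficiency and the viral transformation, and whether they came from 1 culture is not given in the labels. An H3K4me3 library from the same cell type, made with a commercial antibody, served to rank and centre stretches of genome without using either library compared. No input or IgG library was used here, and the cell type was not checked against marker genes, since no mm9 annotation was used.

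The members were 1 kb bins of the mm9 genome with 15 or more H3R2me2s reads or 16 or more combined-mark reads. There were 37260 such bins of 2284983 with a read in any library, or 1.63%, and of 58261 bins called in any of the 3 libraries. A segment of chromosome 2 with strong signal was left out. Member bins no more than 1 kb apart were joined into 15542 regions, of which 5511 were 1 kb wide and 79 were 10 kb or wider. The H3R2me2s library held 6923765 reads and the combined-mark library 7128852, so depth was nearly equal. With 1 library per antibody no difference has a replicate check and no p-value was computed. The 95% intervals describe the error of counting alone, because amplified reads without identifiers need not come from separate molecules.

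Methylation of arginine 2 lies next to lysine 4 on the H3 tail, the residue whose trimethylation marks the promoters of active genes. The symmetric form of arginine 2 dimethylation is known to be compatible with trimethylation of lysine 4, while the asymmetric form is known to hinder it. Enzymes of the PRMT family place the methyl groups, and WDR5, a core subunit of the lysine 4 methyltransferase complexes, is a known reader of the symmetric form. An antibody to the combined mark is meant to bind tails that carry both modifications, whereas an antibody to H3R2me2s is meant to bind the arginine mark whatever lysine 4 carries. How far either antibody kept to its target was not tested here, and their levels were not calibrated against each other. A ratio between them is therefore read only against the same ratio elsewhere in the genome.

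Both marks were called in most member bins, and the combined mark reached its limit in more of them than H3R2me2s did. Of the members, 24043 or 64.5% (64.0 to 65.0) were called for both marks, 9079 or 24.4% (23.9 to 24.8) for the combined mark alone and 4138 or 11.1% (10.8 to 11.4) for H3R2me2s alone. The overlap was 85.3% of the 28181 H3R2me2s bins and 72.6% of the 33122 combined-mark bins. Over all 1 kb bins with a read, 1.23% passed the H3R2me2s limit and 1.45% the limit of the combined mark. Of the regions, 11188 or 72.0% held both calls, 2426 or 15.6% held H3R2me2s calls alone and 1928 or 12.4% combined-mark calls alone. Within the 11188 regions with both calls, the combined mark was called in more bins than H3R2me2s in 4821, in equally many in 5646 and in fewer in 721. With both limits doubled to 30 and 32 reads, 99.4% of H3R2me2s bins were called for the combined mark and 58.2% of combined-mark bins for H3R2me2s.

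The combined mark stood out from its background more than H3R2me2s did. Member bins held 34.1% of all combined-mark reads and 16.1% of all H3R2me2s reads. Their surroundings were raised for both marks. In the 20 kb around each member, bins called in none of the 3 libraries held on average 4.65 H3R2me2s reads and 3.94 combined-mark reads. Far from any called bin the averages were 2.35 and 1.86 reads. Local background was thus 1.97 times the genome-wide one for H3R2me2s, and for the combined mark 2.12 times. In bins called for both marks, H3R2me2s was 8.61 times this local background and the combined mark 22.9 times. In the text that follows, a net level is the reads less local background, given as CPM, the reads scaled to a library of 1000000, and the net ratio is the net combined mark per net H3R2me2s.

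A bin called for 1 mark usually held some of the other. In the 9079 bins called for the combined mark alone, H3R2me2s averaged 10.1 reads, or 2.25 times local background, and 37.7% of the bins were within 3 reads of the H3R2me2s limit. In the 4138 bins called for H3R2me2s alone, the combined mark averaged 8.46 reads, or 2.03 times local background, and 19.1% of the bins were within 3 reads of its limit. The other mark was at or below local background in 446 of the combined-mark bins (4.91%) and in 644 of the H3R2me2s bins (15.6%). The combined mark had 0 reads in 21 H3R2me2s bins, which allows up to 3 reads in each, and H3R2me2s had 0 reads in 1 combined-mark bin. A bin called for 1 mark was therefore seldom shown to lack the other.

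The 2 kinds of single-mark bin lay in different places. Of the bins called for the combined mark alone, 65.3% lay directly beside a bin called for both marks, against 20.7% of those called for H3R2me2s alone. More than 10 kb from any bin called for both lay 21.3% of the first kind and 47.5% of the second. No other member bin lay within 5 kb of 1340 combined-mark bins (14.8%) and of 1648 H3R2me2s bins (39.8%). H3K4me3, the promoter mark, had a median of 64 reads in bins of the combined mark alone, and 97.2% of them reached the H3K4me3 limit of 25 reads. In bins of H3R2me2s alone the median was 26 reads and 52.8% reached that limit. Over all 1 kb bins with a read, 2.45% reached it. Repeats of the same position and strand were 7.50% of the H3R2me2s reads in the H3R2me2s bins, 2.33% of the combined-mark reads in the combined-mark bins, and 5.22% and 2.64% of the 2 libraries as a whole. The part of repeated reads and of calls just past the limit in these differences was not tested.

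The strongest single-mark bins were picked by their count of the called mark, so they are examples and not typical of their classes. The highest combined-mark count without an H3R2me2s call was at chr5:87233001-87234000, with 91 combined-mark reads, 13 of H3R2me2s and 129 of H3K4me3. Beside it lay a bin called for both marks, with 212 combined-mark and 73 H3R2me2s reads. At chr6:146582001-146583000 there were 82 combined-mark and 14 H3R2me2s reads, and at chr13:95746001-95747000 there were 80 and 12. At chr9:86361001-86362000 there were 79 and 13, and the bins on its sides held 4 and 9 combined-mark reads. All 4 bins had 12 to 14 H3R2me2s reads, just below the limit and between 2.64 and 3.86 times local background. The median over all bins of the combined mark alone was 10 reads.

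For H3R2me2s without a combined-mark call the highest count was at chr17:39981001-39982000, with 48 H3R2me2s reads and 12 of the combined mark. This bin belongs to a stretch described below, in which both marks and H3K4me3 were raised. At chr4:11689001-11690000 there were 33 H3R2me2s and 12 combined-mark reads beside 108 of H3K4me3. Of those 12 combined-mark reads, 0 were on the plus strand, while the H3R2me2s reads were split into 18 plus and 15 minus. At chr12:115422001-115423000 the counts were 30 and 13, and at chr6:129143001-129144000 they were 29 and 15. Each of the 4 had 12 to 15 combined-mark reads, close to the limit of 16, where the median over all bins of H3R2me2s alone was 8.

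The ratio of the 2 marks was similar in most regions, with a tail toward H3R2me2s that the read limits favour. Over 12798 regions with at least 30 reads in both libraries together, the median ratio of H3R2me2s CPM to combined-mark CPM was 0.472, the quartiles were 0.417 and 0.577, and 5% to 95% of regions spanned 0.346 to 1.10. The hexagon plot of regions shows this as a narrow band that widens toward low counts, mostly on the side of H3R2me2s. A ratio over 2-fold above the median was found in 957 regions, or 7.48%, and one over 2-fold below it in 34, or 0.266%. The exact interval lay wholly above the median in 896 of the 957 and wholly below it in 24 of the 34. It lay wholly past the 2-fold line in 184 and 0 regions. The regions were picked by the same reads, so these intervals are no separate check. The regions with relatively more H3R2me2s were small: their median was 1 kb, 24 H3R2me2s reads and 18 combined-mark reads, beside 3 kb, 64 and 139 reads for all regions. In 398 of them the combined mark was not called, so that reaching the limit in H3R2me2s alone brought them in. These were all 398 regions of the 12798 without a combined-mark call. The limits of the 2 marks are nearly equal while the median ratio is 0.472. A 1 kb region called for H3R2me2s alone was therefore past the 2-fold line by the limits themselves. The other direction was not fixed in this way. H3R2me2s was not called in 1212 of the 12798 regions, and 32 of these were among the 34 with relatively more combined mark. At least 100 reads were found in 79 of the 957 regions and in 2 of the 34. Set against the median of their own set, 104 regions of at least 100 reads were over 2-fold above and 1 below, and with doubled limits 56 and 32. All these ratios include background reads, and local background was higher for H3R2me2s, at 4.65 reads per member bin against 3.94. Net of local background, again against the median of those values, the numbers were 969 and 213. How much of the one-sided tail comes from background and how much from the limits was not tested.

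**Figure D1:**
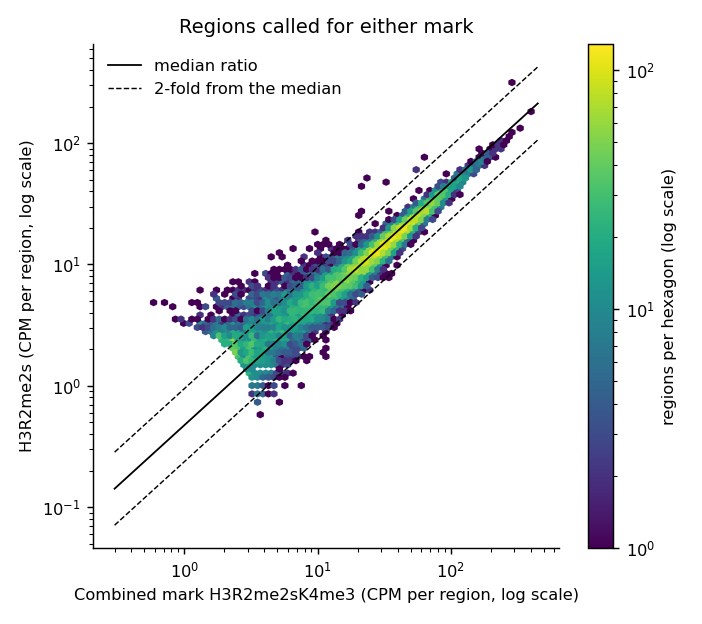
Each hexagon counts regions of bins called for either mark, with at least 30 reads in both libraries together, by combined-mark CPM (x axis, log scale) and H3R2me2s CPM (y axis, log scale). The solid line is the median ratio of 0.472 and the dashed lines are 2-fold from it: 957 regions lie above the upper line and 34 below the lower one.

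The ratio varied between regions by more than counting gives, and that excess was smallest where H3K4me3 was strong. Over 9506 regions with 30 or more reads of each mark, the log2 ratio had an SD of 0.35. Counting accounts for 0.21, which leaves 0.28 beyond it. In 5 equal classes of H3K4me3 reads per kb, the SD beyond counting was 0.41, 0.18, 0.12, 0.09 and 0.08 from the weakest to the strongest. The median ratio of H3R2me2s to the combined mark over the same classes was 0.577, 0.475, 0.454, 0.440 and 0.427. In the strongest class 5% to 95% of regions lay between 0.354 and 0.511. Bringing each class to its own median reduced the overall SD beyond counting from 0.28 to 0.22. The requirement of 30 reads of each mark leaves out regions with little of either one. Background reads were not removed from these ratios and make up more of the reads in weak regions. The part of background and of the read requirement in the trend over classes was not tested.

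Reads on the plus and on the minus strand were compared within each library. In 8913 regions with at least 100 reads in both libraries together and 30 of each mark, the log2 ratio from plus-strand reads had a Pearson r of 0.462 with that from minus-strand reads, across regions that share libraries and local sequence. After removal of the H3K4me3 class medians r was 0.382. The 5% of regions with relatively most H3R2me2s on the plus strand had a median log2 ratio 0.79 above that of all regions there, and 0.51 above it on the minus strand, with 87.4% on the same side. For the 5% with relatively most combined mark the medians were -0.56 on the plus strand and -0.12 on the minus strand, with 69.3% on the same side. Most of the plus-strand difference was thus found again on the minus strand toward H3R2me2s, and little of it toward the combined mark. Regions were chosen on reads of both strands together, with at least 30 of each mark, and background was not removed. Such a choice limits low ratios more than high ones, so the contrast between the directions is not a separate check.

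The balance of the marks followed the level of H3K4me3, and this held with local background in place of the genome-wide one. In 5 classes of member bins from weakest to strongest H3K4me3, the net ratio was 1.12, 2.08, 2.32, 2.45 and 2.53, with SDs over 20 chromosomes of 0.31, 0.17, 0.08, 0.06 and 0.05. In the weakest class the SD over autosomes alone was 0.10, and chromosome X was at 2.45. Counting intervals were 1.11 to 1.14 for the weakest class and 2.53 to 2.54 for the strongest. The net combined mark went from 1.38 to 23.2 CPM per kb over the classes and net H3R2me2s from 1.23 to 9.14. Strongest over weakest was 2.26 with local background and 2.35 with the genome-wide one. The strongest class was above the weakest on 20 of 20 chromosomes, and the ratio rose at every step on 19 of them.

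Member bins were chosen on reads of the marks compared, so the same was measured in bins chosen on H3K4me3 alone. In 56026 bins with 25 or more H3K4me3 reads, the net ratio over 5 classes was 1.36, 1.61, 1.99, 2.36 and 2.52, a 1.85-fold rise, and it rose at every step on 20 of 20 chromosomes. In the weakest of these classes, where 5.54% of bins were called for H3R2me2s and 4.39% for the combined mark, the levels were 1.70 and 2.19 times local background. In the strongest they were 12.4 and 35.2 times. Counting 1 read per position and strand, the ratio in member bins rose 1.72-fold, and in bins chosen on H3K4me3 it went from 1.41 to 2.50, or 1.78-fold. At doubled limits the rise was 1.06-fold, from 2.41 to 2.55, over classes whose mean H3K4me3 started at 93.1 reads, beside 32.3 in the weakest class of all members. Among all members, however, classes with means of 70.1 and 111 H3K4me3 reads had ratios of 2.08 and 2.32, both below 2.41. The part of the limits in the smaller rise was not tested. The plot of the net ratio by class shows that the curves differ most in the weak classes and meet in the strongest.

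**Figure D2:**
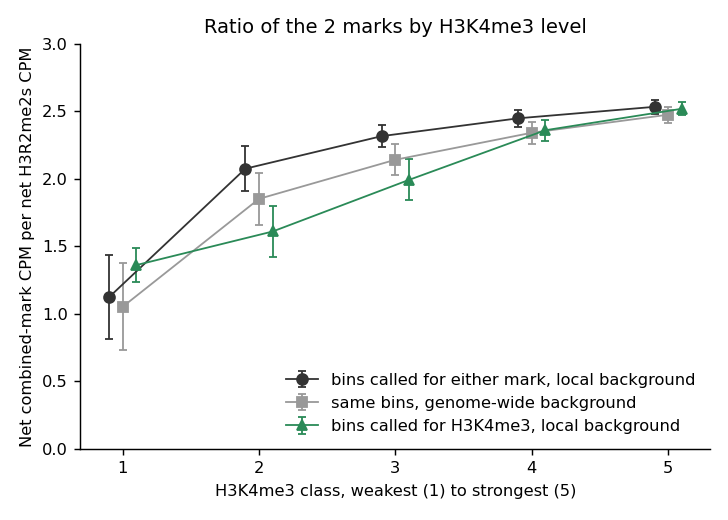
Net combined-mark CPM per net H3R2me2s CPM (y axis) in 5 classes of H3K4me3 reads (x axis), with bars of 1 SD over 20 chromosomes. Circles are bins called for either mark with local background, squares the same bins with genome-wide background, and triangles bins chosen on H3K4me3 alone. All 3 curves rise, the circles from 1.12 to 2.53 and the triangles from 1.36 to 2.52.

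Narrow regions had relatively less of the combined mark. Their H3K4me3 was weaker too, but in the weaker H3K4me3 classes regions of 1 kb were also below those of 2 to 3 kb. The net ratio was 1.47 (SD over chromosomes 0.25) in the 5511 regions of 1 kb, 2.40 (0.07) at 2 to 3 kb, 2.47 (0.07) at 4 to 5 kb, 2.45 (0.08) at 6 to 9 kb and 2.30 (0.19) at 10 kb or more. Mean H3K4me3 per bin was 62.0, 148, 177, 186 and 194 reads in the same order. Within the strongest H3K4me3 class the values by width were 2.44, 2.49, 2.55, 2.58 and 2.59, so that width made little difference there. Within the weakest class they were 0.597, 1.60, 1.71, 1.31 and 1.07, with SDs over chromosomes of 0.29, 0.28, 0.38, 0.32 and 1.92. The last value came from 119 bins, with a counting interval of 0.978 to 1.17. Its SD rests on few bins per chromosome, so its place among the others is left uncertain. Regions of 1 kb with weak H3K4me3 were the only group of these in which net H3R2me2s exceeded the net combined mark. These bins averaged 14.8 H3R2me2s and 9.91 combined-mark reads and were admitted on those same reads, so the limits themselves favour such a ratio. In bins chosen on H3K4me3 alone, which start at 25 H3K4me3 reads, the weakest class had a ratio of 1.36. At doubled limits the widest regions stood below the narrowest, at 0.844 times, where all members give 1.57.

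Inside regions of 4 kb or more, the combined mark was relatively stronger in inner bins than at the ends. The net ratio was 2.31 (SD over chromosomes 0.09) in the first and last bins of 3143 such regions and 2.49 (0.07) in the bins between them. Mean H3K4me3 was 109 reads at the ends and 232 inside. At a like H3K4me3 level the ends were not lower in the 4 strongest classes, where the ratio was 2.13, 2.36, 2.48 and 2.58 at the ends and 2.00, 2.31, 2.45 and 2.56 inside. In the weakest class it was 1.46 at the ends and 1.71 inside, with SDs over chromosomes of 0.29 and 0.46.

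Around H3K4me3 summits both marks fell off together. Profiles were drawn in 100 bp bins for 11187 regions called for both marks, centred on the highest H3K4me3 bin. In the central 100 bp bin H3R2me2s reached 25.1 times local background and the combined mark 69.5 times. Between 1 and 2 kb the levels were 2.81 and 6.10 times, and from 3.1 to 5 kb they were 1.29 and 1.68 times. Of the net signal within 2 kb, 60.1% of H3R2me2s and 60.9% of the combined mark lay within 500 bp of the summit. The net ratio was 2.36 (2.34 to 2.37) in the central bin and highest from 100 to 500 bp, at 2.46 (2.45 to 2.47). It was 2.38 from 600 to 900 bp and 2.34 (2.33 to 2.36) from 1 to 2 kb. Farther out it was 2.09 (2.05 to 2.12) from 2.1 to 3 kb and 1.98 (1.94 to 2.02) from 3.1 to 5 kb, with SDs over chromosomes of 0.11 and 0.15. Summit over 1 to 2 kb, which leaves out the distances between them, was 1.01, which is within the SD over chromosomes of 1. That quotient was 1.14 with genome-wide background, 1.06 and 1.05 with reads not moved or moved 150 bp, and 0.978 at doubled limits.

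**Figure D3:**
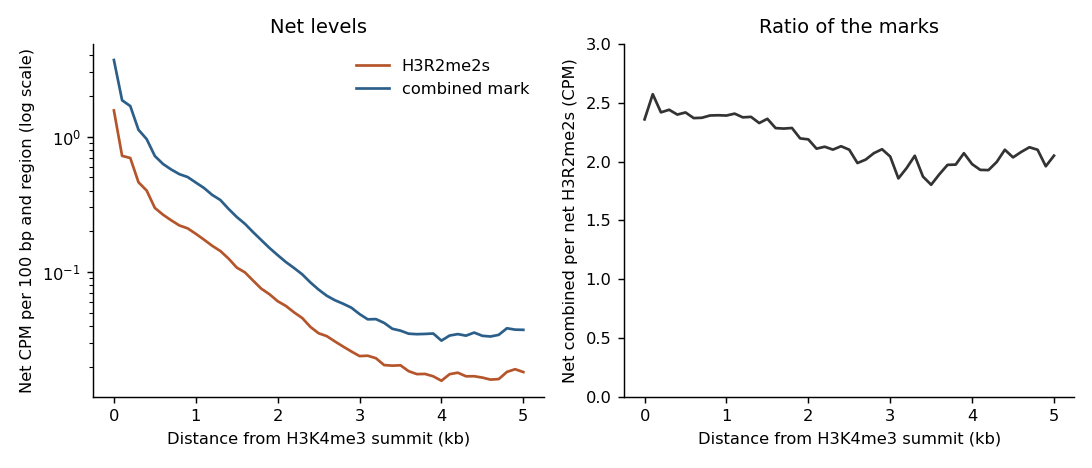
Left, net CPM per 100 bp and region (log scale) of H3R2me2s and the combined mark by distance from the H3K4me3 summit in kb, both directions averaged over 11187 regions. Right, the ratio of the curves, which is 2.36 in the central bin and highest at 100 bp, at 2.57. From there it stays near 2.4 to about 1.5 kb and then declines to about 2.0.

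Summits of the marks lay nearly as close to each other as summits of 1 mark do to themselves at the same depth. In 6726 regions with at least 60 reads of each mark, the highest point of a 3-bin running sum was in the same 100 bp bin for both marks in 52.7% of regions and within 200 bp in 82.2%. To see what counting leaves, equal random parts of each library were taken in every region, with a median of 55 reads per part. The summits then fell within 100 bp of each other in 57.6% of regions between the marks, in 57.9% between parts of H3R2me2s and in 60.8% between parts of the combined mark. The same 100 bp bin held both summits in 35.0%, 36.9% and 36.2%. Distances over 1 kb made up 8.79%, 8.99% and 7.94%. The cumulative plot shows the 3 curves of equal parts lying close together, with the combined mark against itself slightly ahead. Between the marks the share within 100 bp was close to that of H3R2me2s with itself and below that of the combined mark with itself.

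**Figure D4:**
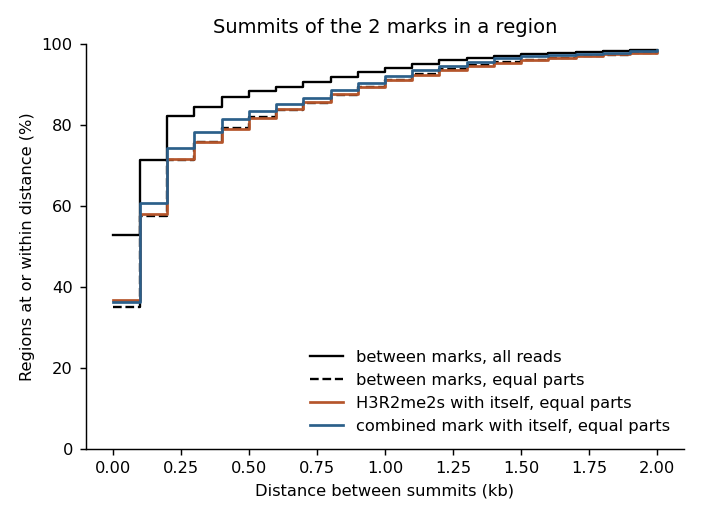
Share of 6726 regions (y axis, %) whose summits lie at or within a distance (x axis, kb). The black solid line uses all reads of both marks. The dashed line compares the marks in equal parts of the reads, and the coloured lines compare 1 mark with itself in such parts. At 100 bp the equal-part curves are at 57.6%, 57.9% and 60.8%.

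Regions with the most extreme ratios differed in kind between the 2 directions. The 9006 regions with at least 100 reads were ranked by the interval bound nearest the median. First toward H3R2me2s by that bound was chr17:39980001-39986000, with 357 H3R2me2s reads, 172 of the combined mark and 173 of H3K4me3. Its ratio of 2.14 (1.78 to 2.58) was 4.52 times the median. Over its 6 bins H3R2me2s had 143, 48, 50, 49, 15 and 52 reads, and the combined mark had 78, 12, 26, 24, 6 and 26. Local background was low, at 4.38 H3R2me2s and 2.03 combined-mark reads over the region, so both marks stood at like multiples of it, 81.5 and 84.6. At chr1:24618001-24622000 the bins held 58, 77, 103 and 58 H3R2me2s reads and 24, 48, 50 and 31 combined-mark reads. There the levels were 47.4 and 44.5 times local background, and the ratio was 1.99 (1.63 to 2.44). At chr2:22444001-22446000 the bins held 70 and 24 H3R2me2s reads and 28 and 18 combined-mark reads, at 23.9 and 14.2 times local background. In all 3 of these regions H3R2me2s reads outnumbered H3K4me3 reads. How many copies of these sequences the genome holds was not checked, and reads from several copies placed at 1 site would raise counts and levels alike.

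The other 3 regions with relatively most H3R2me2s had weak signal on raised background. At chr4:102255001-102260000 the 5 bins held 16, 14, 18, 12 and 18 H3R2me2s reads and 11, 9, 4, 4 and 3 combined-mark reads. That region had 78 and 31 reads in all, where local background alone gives 44.2 and 26.2. Its ratio of 2.59 (1.69 to 4.06) was the highest of these 6 but had a wide interval. At chr1:89543001-89548000 there were 85 and 37 reads with a ratio of 2.37 (1.59 to 3.58), and local background gives 36.9 and 29.2. At chr2:59913001-59917000 there were 81 and 39 reads, and local background gives 23.2 and 23.5. The combined mark there was 1.18 to 1.66 times local background, and H3R2me2s 1.77 to 3.49 times. On the plus strand lay 14 of 31, 12 of 37 and 10 of 39 combined-mark reads, and 34 of 78, 45 of 85 and 49 of 81 H3R2me2s reads. The strands were thus alike for both marks in the first region, while in the other 2 the combined mark had mostly minus-strand reads.

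Regions with relatively most of the combined mark looked like ordinary strong H3K4me3 sites with a lower H3R2me2s peak in the same 1 kb bin. The first was chr5:135113001-135116000, with 12, 35 and 9 H3R2me2s reads and 57, 160 and 30 combined-mark reads over its bins, beside 115, 285 and 85 of H3K4me3. Its ratio of 0.233 (0.171 to 0.313) was 0.494 of the median. It was followed by chr9:96377001-96379000 with 6 and 54 against 44 and 202 reads, and by chrX:103222001-103224000 with 20 and 23 against 80 and 102. At chr13:97157001-97160000 the bins held 5, 45 and 19 against 26, 165 and 80 reads. At chr13:22086001-22089000 they held 21, 52 and 25 against 103, 179 and 78, and at chr6:29113001-29115000 they held 12 and 48 against 40 and 191. In all 6 regions H3R2me2s was 3.80 to 7.85 times local background and the combined mark 21.1 to 35.1 times. The highest bin was the same for both marks in each.

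**Figure D5:**
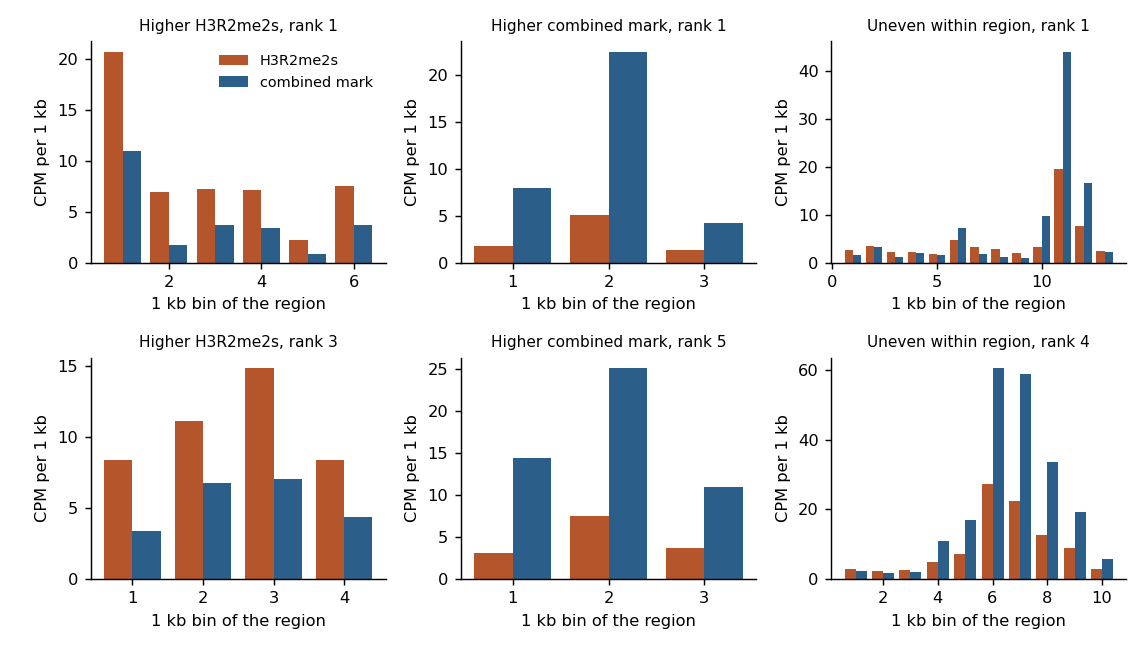
CPM per 1 kb (y axis) of H3R2me2s and the combined mark in the successive 1 kb bins (x axis) of 6 regions: 2 with relatively more H3R2me2s on the left, 2 with relatively more combined mark in the middle and 2 with uneven bins on the right. The combined mark leads in the high bins of the uneven regions and H3R2me2s is equal or ahead in most of their low bins. Background is not removed.

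Some wide regions changed balance from bin to bin. In each of the 79 regions of 10 kb or more, the log2 ratio was compared between bins. Only bins with at least 30 reads in both libraries together were used. The SD beyond counting had a median of 0.29 and a highest value of 0.82, and it was 0 in 18 regions. That highest value was at chr14:70678001-70691000, where the 13 bins ran 18, 24, 15, 15, 12, 32, 23, 19, 14, 22, 136, 53 and 17 for H3R2me2s. The combined mark ran 12, 23, 9, 14, 11, 51, 13, 8, 7, 69, 314, 118 and 16. In the highest bin the combined mark had 314 reads to 136, while in the first 5 bins together H3R2me2s had more. At chr4:102238001-102248000 the first 3 bins held 19, 16 and 18 H3R2me2s reads and 16, 11 and 13 combined-mark reads. The 2 highest bins there held 188 and 154 against 432 and 420. Downstream of it lies chr4:102255001-102260000, one of those with relatively most H3R2me2s. At chr3:60212001-60222000 the first bin held 56 against 128 reads, and the others 29, 13, 19, 15, 9, 15, 3, 20 and 15 against 43, 12, 11, 10, 14, 6, 1, 9 and 20. Of its 8 lowest bins, H3R2me2s had more reads in 6, background included. Local background in those 8 bins was 7.18 to 8.36 H3R2me2s reads and 4.45 to 4.91 combined-mark reads. At chr3:104439001-104449000 the highest bin held 140 against 292 reads, the second 5 against 22 and the last 15 against 5. In the order given, 8, 9, 4 and 7 bins of these regions entered the SD, so some of the low bins listed did not. These 4 regions were chosen for their uneven bins, so the contrast within them is a description, and whether uneven bins follow H3K4me3 over all 79 was not tested. Background was not removed from these reads, and its part in the contrast was not tested either.

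The regions with most reads of both marks kept close to the median ratio with 1 exception. H3R2me2s per combined mark was 0.424 (0.397 to 0.454) at chr12:114661001-114670000, 0.405 (0.375 to 0.438) at chr14:79914001-79924000 and 0.406 (0.374 to 0.441) at chr11:11586001-11597000. The exception was the 54 kb region chr11:3051001-3105000, with 2189 H3R2me2s and 2092 combined-mark reads and a ratio of 1.08 (1.01 to 1.14), or 2.28 times the median. Its number of copies in the genome was not checked either.

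Chromosome X carried relatively more of the combined mark than the autosomes. Over member bins the net ratio was 2.67 (2.63 to 2.72) on X and 2.36 over the autosomes, whose SD was 0.03 and whose values ran from 2.30 on chromosome 11 to 2.44 on chromosome 18. On X, 97.3% of H3R2me2s bins were called for the combined mark, beside 85.1% (SD 1.7) on an average autosome. In the weakest H3K4me3 class of member bins the ratio was 2.45 on X and 1.12 (SD 0.10) on autosomes, and in the strongest 2.72 and 2.54 (SD 0.03). Background on X, relative to autosomes, was 0.508 in the H3R2me2s library, 0.529 in that of the combined mark and 0.534 in that of H3K4me3, so a fixed limit of reads asks for a higher level on X. With bins instead chosen and ranked by H3K4me3 in multiples of the background of their own chromosome, the ratio was 2.54 on X (2.49 to 2.58) and 2.35 on autosomes (SD 0.02). X was higher in the 2 strongest classes, at 2.53 against 2.37 (SD 0.03) and 2.70 against 2.52 (SD 0.03). In the 2 weakest, unlike in member bins, it was 1.19 against 1.38 (SD 0.10) and 1.45 against 1.66 (SD 0.08), each with a counting interval that reached into the range of the autosomes. Chromosomes are not replicates, and what part copy number has in these values was not tested.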

How the data were processed

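The authors deposited 1 file per library with 1 mapped read of 39 bases per line, so read counts per bin are raw counts, and no scaling by the authors was found in them. Per the labels' protocols, amplification took 15 PCR cycles and gel selection kept 100 to 500 bp. The build was mm9, per the submitters' processing notes. The aligner is not given in the sources used here, and neither is its handling of repeats. No input library and no mm9 genome or annotation was used here, so regions are given by coordinate.

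Reads were moved 75 bp in the 3-prime direction and counted in bins of 1 kb and 100 bp (Python 3.11.15, NumPy 2.4.6, SciPy 1.17.1). In member bins, distances from plus to minus read starts peaked at 143 bp for H3R2me2s and 136 bp for the combined mark. Local background was the mean of bins in the surrounding 20 kb called in none of the 3 libraries, or the genome-wide mean where fewer than 5 remained (226 members). Read splits have exact Clopper-Pearson intervals, and net ratios have delta-method intervals from Poisson variances. No test between libraries was made. The calculations were tested on simulated data.

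Regions were named by rule: the 6 highest and 6 lowest ratios among regions of at least 100 reads, ranked by the interval bound nearest the median, the 4 with most reads, the 4 most uneven of 10 kb or more, and the 4 strongest bins called for each mark alone. The members, classes and rules were chosen with earlier results of these data known. Alternatives were other read shifts, 1 read per position and strand, other limits, minimums, backgrounds and centres.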

Additional observations from a re-analysis of the deposited data

Results flagged for a closer look

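The segment of chromosome 2 that was left out held 3866 H3R2me2s reads and 4244 combined-mark reads, beside 1630 of H3K4me3. It is listed because strong signal lies there in data that no comparison above uses.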

How the results depend on the processing

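Of 95 values recomputed for 13 results under 18 settings, 59 stayed within their tolerance (counting interval, SD over chromosomes, or 1.5-fold for counts), 34 moved more and 2 reversed. Of H3R2me2s bins, 85.9% were called for the combined mark with reads not moved, 86.0% with reads moved 150 bp, 89.5% with 1 read per position and strand, 99.4% at doubled limits and 89.5% where a call within 1 kb counts. Of combined-mark bins, 70.7%, 58.2% and 91.2% were called for H3R2me2s in the last 3 settings. With doubled limits the median log2 ratio became -1.20, the SD beyond counting 0.15, the regions with relatively more H3R2me2s 56, the rise over H3K4me3 classes 1.06 and the X quotient 1.08. The level of the other mark became 8.25 in H3R2me2s bins and 4.62 in combined-mark bins, the widest over narrowest quotient 0.844 (reversed) and the summit quotient 0.978 (reversed). Fewer and stronger bins enter there. The rise over H3K4me3 classes was 1.72 with 1 read per position and strand, 1.85 in bins chosen on H3K4me3 and 1.78 with both, and the width quotient was 1.38 with 1 read per position and strand. Genome-wide background gave 1.14 for the summit quotient, 4.55 and 4.29 for the other mark and 1.19 for X. The summit quotient was 1.06 with reads not moved and 1.05 with reads moved 150 bp. The median summit distance went from 0 to 100 bp in both of these and with the highest single 100 bp bin. With no minimum of reads the median log2 ratio was -1.02, and scaled to background it was -1.46. Among regions of at least 100 reads, 104 were over 2-fold above the median of that set and 1 below, and net of local background 213 below. The X quotient was 1.08 with H3K4me3 in multiples of each chromosome's background. That setting, and the joint use of H3K4me3-chosen bins with 1 read per position and strand, were chosen after seeing the data. The cause of each change was not tested otherwise. No paired analysis was possible because there was a single library for each antibody, and so no replicate could be left out.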

Other observations

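Neighbouring regions had only slightly similar ratios. Across pairs of successive regions with 30 or more reads of each mark, the Pearson r of the log2 ratio, after removal of H3K4me3 class medians, was 0.111 for 986 pairs under 10 kb apart, 0.077 for 3090 pairs at 10 to 50 kb, 0.058 at 50 to 200 kb and 0.041 at larger distances. The pairs share libraries and local sequence.

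Within member bins the fine pattern was nearly common to both marks. Over 372600 bins of 100 bp, with each library divided at random into 2 parts and square roots of reads taken, r was 0.653 between marks, 0.594 between parts of H3R2me2s and 0.806 between parts of the combined mark. After removal of the mean of each 1 kb bin, r between marks was 0.549, where the parts of each library allow at most 0.582, so the marks reached 0.942 of it. These 100 bp bins are not independent of each other.

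Chromosome Y had 55 member bins, with a net ratio of 1.21 (1.13 to 1.29), below every autosome. Its mean H3K4me3 was 89.1 reads per bin and only 7.27% of its 55 bins were in the strongest H3K4me3 class. The ratio of 2.88 in that class thus rests on very few bins and has no interval here. In the weakest class it was 0.803.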
